A study of Mus musculus with 14 samples.

Results

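A macrophage cell line was compared with lymphoid cell lines, a myeloma line and a T-cell lymphoma line, on two-colour spotted arrays of mouse genes. The comparison used 4 of the 14 arrays of the series: 1 of the macrophage line, 2 of the myeloma line and 1 of the T-cell lymphoma line. The arrays were chosen by the lines' labels and not by any measured value. The 2 myeloma arrays were averaged first, and the mean of the 2 lymphoid lines was then subtracted from the macrophage value of each probe. The 10 remaining arrays, of 8 non-blood lines, entered the fit as the source of its error and served as a background range.

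Macrophages are myeloid phagocytes. They take up particles and dying cells through scavenger, lectin and Fc receptors, break them down in lysosomes, and call in other leukocytes with chemokines. B and T lymphocytes recognise antigen through rearranged receptors that signal through the CD79 and CD3 chains; a plasma cell, of which a myeloma is the tumor, secretes antibody. The factor PU.1 (Spi1) directs myeloid gene expression, whereas Irf4 and Prdm1 mark plasma cells and Lef1 and Bcl11b mark T cells.

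Total RNA of the line was labelled with Cy5 and hybridised against Cy3-labelled RNA of a Stratagene pool of mouse cell lines, with the dyes the same way round on all arrays. The 4 samples are known only by the type of line: no name, strain, treatment or passage was given, and the short annotation of each reads primary tissue although its title names a cell line. Nothing in the labels puts the 2 myeloma arrays in separate cultures, so p-values measure a spread between arrays that may be technical. Values are log2 ratios of line over pool, so that 1 unit is a doubling, with base 2 judged from the values and not stated. On the 14 arrays the median log2 ratio lay between -0.508 and 0.124, and the macrophage array had 76 empty spots, against 43 and 129 on the myeloma arrays and 8 on the T-cell lymphoma array. The scan images of the macrophage and both myeloma arrays lie in 1 run of image numbers, with those of 3 other lines, and the T-cell lymphoma image lies in another. Each line is a cell population measured in bulk, where fewer expressing cells and less RNA per cell cannot be told apart.

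The measured macrophage markers and the 3 measured T-cell markers stood with the labels, and so did 5 of the 6 measured B and plasma cell markers. Of 7 macrophage markers 6 were measured, and all 6 lay above 0 in the macrophage array (0.58 to 2.83), against none above 0 in the 3 lymphoid arrays. Cd68, a lysosomal membrane glycoprotein of phagocytes, was 2.01 in the macrophage array, against -0.64 and -0.46 in myeloma arrays 1 and 2 and -4.37 in the T-cell lymphoma array. Cd14, the co-receptor for bacterial lipopolysaccharide, was 2.83 in the macrophage array, against -2.50 and -1.24 in myeloma arrays 1 and 2 and -2.96 in the T-cell lymphoma array. The macrophage value of both was above every lymphoid array. Adgre1, which encodes the macrophage surface protein F4/80, was 1.94 in the macrophage array, against -1.02 in myeloma array 1, array 2 being empty for this probe, and -1.39 in the T-cell lymphoma array. Lyz1, a lysozyme, was 1.41 in the macrophage array, against -1.87 in myeloma array 2, array 1 being empty for this probe, and -2.54 in the T-cell lymphoma array. These 2 also lay above every measured lymphoid array, but their differences of 3.15 ± 0.72 (adjusted p = 0.0970) and 3.62 ± 0.78 (adjusted p = 0.0848) did not pass the test. Adgre1 was called without either fibroblast array, 1 left out at a time (adjusted p = 0.0358), and with the trend along the probe number removed (adjusted p = 0.0457), and both were called with the run of images as a random block (adjusted p = 0.0340 and 0.0431). Lyz2, the lysozyme most used as a macrophage marker, differed by 0.23 (adjusted p = 0.908). All 3 measured T-cell markers of 7 (Cd3g, Lat and Zap70) lay above 0 in the T-cell lymphoma array (1.68 to 2.31) and below 0 in the macrophage array (-2.35 to -2.02) and both myeloma arrays. Outside these markers, Cd28 was 2.97 in the macrophage array and -1.20 in the T-cell lymphoma array. In the longer T-cell list of 35 probes, the macrophage array was above all lymphoid arrays in 10 and below them in 9. The median difference of that list was 0.07. Of 9 B and plasma cell markers 6 were measured; 2 were above 0 in the macrophage array, against 6 and 5 in myeloma arrays 1 and 2 and 1 in the T-cell lymphoma array. The 2 were Blnk, a B-cell signalling adaptor, at 1.54 in the macrophage array, and Cd79a. Cd79a, a chain of the B-cell receptor, went against its lineage: it was 1.31 in the macrophage array, against 1.15 and -0.61 in myeloma arrays 1 and 2 and 1.37 in the T-cell lymphoma array. The 3 measured stromal markers of 4 lay below -0.5 in all 4 arrays, and the 6 granulocyte markers averaged 0.378 in the macrophage array, against 0.421 and 0.143 in the myeloma arrays and 0.372 in the T-cell lymphoma array. Of 4 mast cell and erythroid markers, 2 were above 0 in the macrophage array, against 3 and 1 in the myeloma arrays and 4 in the T-cell lymphoma array.

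**Figure D1:**
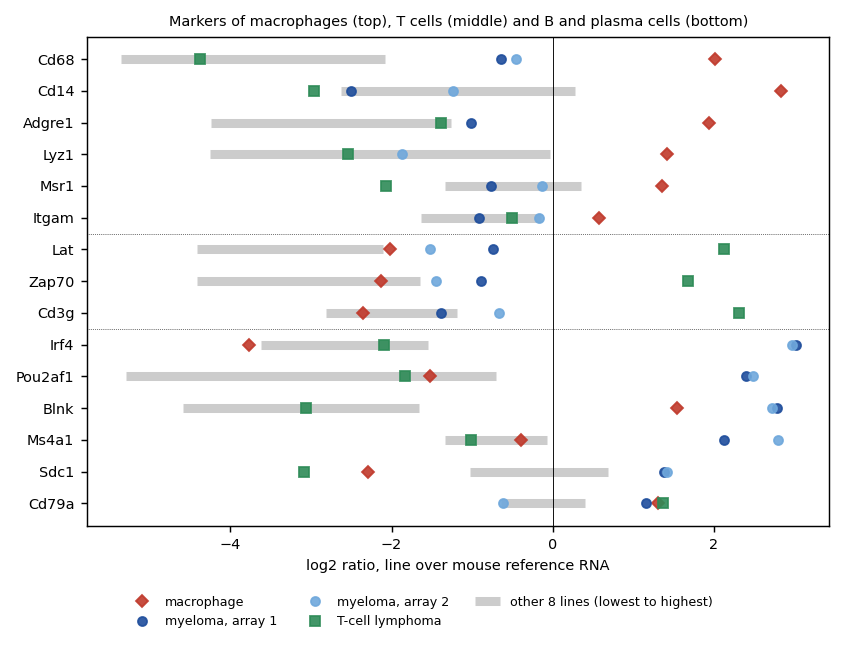
Log2 ratios of line over reference RNA (horizontal axis) for 15 lineage markers (vertical axis), 1 point per array, with a grey bar from the lowest to the highest of the 8 non-blood lines. The macrophage diamond is right of every lymphoid point for the top 6 genes, the T-cell lymphoma square is right of the other arrays for Lat, Zap70 and Cd3g, and the myeloma circles lead for Irf4, Pou2af1, Blnk, Ms4a1 and Sdc1.

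Across the array, 154 of 7423 features tested (2.07%) passed limma's test (Benjamini-Hochberg, adjusted p under 0.05), here termed a call. The macrophage line was the higher one for 87 (1.17%) and the lower one for 67 (0.903%), and 153 of the 154 had the macrophage array outside all measured lymphoid arrays. That last property alone is common: 24.1% of all features had the macrophage array above all lymphoid arrays and 28.4% below. The differences among called features ranged from 2.08 to 7.24 for the higher and from -5.97 to -2.07 for the lower ones, while the median over all features was -0.05. The macrophage and T-cell lymphoma lines have 1 array each and were assumed to vary like the 3 lines with 2 arrays, which give 3 residual degrees of freedom. The count moved when 1 array at a time was left out, its partner being kept. It was 29 without either mammary tumor array, 288 without either fibroblast array (Krtap14, at an adjusted p of 0.0560, then lost its call), 69 without myeloma array 1 and 39 without myeloma array 2, and 57 and 35 of the last 2 counts were among the 154. Quantile normalization left 8 calls, 6 higher and 2 lower, the 4 blood-cell arrays alone gave 13, and the lymphoid lines taken as 2 samples gave 6. In the other direction, there were 311 with the trend along the probe number removed and 365 with the run of images as a random block. With the run of images as a fixed term no feature was called (1047 had an unadjusted p under 0.05 by limma, against 1304 without that term), and the T-cell lymphoma array shares no run with the macrophage array, so no within-run value of this difference could be had. The fixed term, like the 4 blood-cell arrays alone, leaves the myeloma pair as the only source of residual spread. A run effect and the loss of residual degrees of freedom cannot be told apart in that fall to 0 calls.

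**Figure D2:**
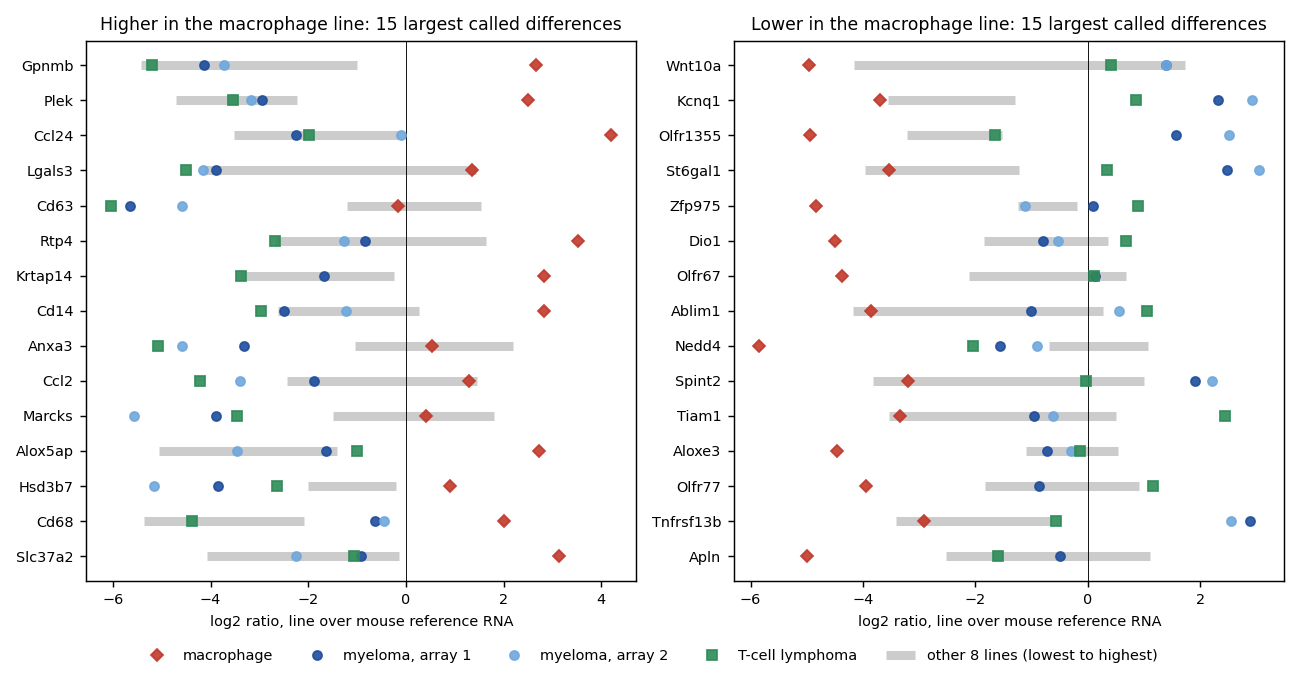
Log2 ratios of line over reference RNA (horizontal axis) for the 15 named probes with the largest called difference in each direction, 1 point per array, with a grey bar from the lowest to the highest of the 8 non-blood lines. The macrophage diamond lies right of all lymphoid points in the left panel and left of them in the right panel. Krtap14, Olfr67, Olfr77 and Apln lack a value on myeloma array 2.

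Lysosomal genes, the list with the most measured probes, also held the most calls: 8 of 51 were higher, none lower, and 43 were not called. Over all features 1.17% were called higher and 0.903% lower. The S100, galectin and annexin list held 4 higher calls among only 19 probes. The median difference of the lysosomal list was 0.62, against -0.05 over all features. Gpnmb, a transmembrane glycoprotein of lysosomes and melanosomes, was 2.67 in the macrophage array, against -4.13 and -3.72 in myeloma arrays 1 and 2 and -5.20 in the T-cell lymphoma array. Its difference of 7.24 ± 0.55 (adjusted p = 0.0119), a 151-fold one, was the largest of any feature tested. Cd63, a tetraspanin of late endosomes, was -0.17 in the macrophage array, against -5.64 and -4.59 in myeloma arrays 1 and 2 and -6.03 in the T-cell lymphoma array. The macrophage line lay near the pool for Cd63, and all lymphoid arrays lay far below it, with a difference of 5.41 ± 0.63 (adjusted p = 0.0194). Cd68 differed by 4.47 ± 0.41 (adjusted p = 0.0169), or 22.2-fold. The lysosomal proteases and hydrolases followed. Ctsl (cathepsin L) was -0.28 in the macrophage array, against -2.73 and -1.83 in myeloma arrays 1 and 2 and -5.57 in the T-cell lymphoma array. Lgmn (legumain), an asparaginyl endopeptidase, was 1.67 in the macrophage array, against 0.32 and 0.49 in myeloma arrays 1 and 2 and -3.86 in the T-cell lymphoma array. In both, the T-cell lymphoma array was far below the others. Ppt1 (palmitoyl-protein thioesterase) differed by 3.0, Lipa (lysosomal acid lipase) by 2.55 and Grn (progranulin) by 2.54. Of the 43 probes without a call, Ctsa (cathepsin A) differed by 3.25, Laptm5 by 3.06 and Ctsc (cathepsin C) by 2.91, at adjusted p of 0.0801, 0.144 and 0.0799. Without either mammary tumor array, or without myeloma array 2, Gpnmb, Cd63 and Cd68 were still called and the other 5 were not. Without myeloma array 1, Ctsl, Lipa and Grn were not.

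Promoters are shown for 2 genes of the higher set that hold the letters GAGGAA, the core that PU.1 binds, searched on both strands in 300 bases of RefSeq GRCm38.p6 (250 before the gene start and 50 after). Both were picked after their sequences were searched. The capitals mark GAGGAA, or TTCCTC where the letters lie on the other strand. Each is written 5′ to 3′ along its gene. The Cd68 promoter is chr11:69666121-69666420 on the minus strand, with 1 copy on each strand, and the Plek promoter is chr11:17008669-17008968 on the minus strand, with 1 copy on the opposite strand.
Cd68: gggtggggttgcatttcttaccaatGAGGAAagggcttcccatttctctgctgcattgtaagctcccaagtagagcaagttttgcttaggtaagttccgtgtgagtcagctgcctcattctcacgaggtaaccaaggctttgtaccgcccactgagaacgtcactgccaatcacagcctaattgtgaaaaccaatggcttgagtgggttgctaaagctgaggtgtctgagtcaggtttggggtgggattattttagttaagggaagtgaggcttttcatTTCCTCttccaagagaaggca
Plek: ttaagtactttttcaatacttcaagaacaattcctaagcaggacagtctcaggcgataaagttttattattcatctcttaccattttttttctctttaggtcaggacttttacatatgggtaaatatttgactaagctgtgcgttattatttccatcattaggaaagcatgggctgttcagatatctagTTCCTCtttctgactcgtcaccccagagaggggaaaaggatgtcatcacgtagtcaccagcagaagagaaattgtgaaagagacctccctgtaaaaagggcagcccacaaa
The letters occurred in 28.3% of all 32851 promoters of the table, and the tested genes with a promoter there held them in 1653 of 5072 (32.6%). The higher genes held them in 24 of 62 (38.7%) and the lower genes in 15 of 42 (35.7%). The promoters of Gpnmb and Lgals3 lacked the letters in this window.

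Surface receptors of myeloid cells gave 4 higher calls and no lower one among 39 measured probes, with a median difference of 1.10. Over all features 1.17% were called higher and 0.903% lower. Cd14 differed by 5.24 ± 0.68 (adjusted p = 0.0245), a 37.8-fold difference. Lilrb4a, an inhibitory immunoglobulin-like receptor, was 2.35 in the macrophage array, against -1.43 and -2.65 in myeloma arrays 1 and 2 and -1.62 in the T-cell lymphoma array. The C-type lectin receptors Clec4d and Clec5a differed by 3.12 ± 0.47 (adjusted p = 0.0303) and 2.67 ± 0.40 (adjusted p = 0.0296). Clec5a was 2.29 in the macrophage array, against -0.28 and -0.44 in myeloma arrays 1 and 2 and -0.41 in the T-cell lymphoma array, so that its lymphoid arrays lay close together and below the macrophage array. For 4 receptors with no call, Cd36, Sirpa, Trem2 and C5ar1, the myeloma arrays lay over 2 apart. The scavenger receptor Cd36 was 3.83 in the macrophage array, against 0.25 and -2.41 in myeloma arrays 1 and 2 and -4.11 in the T-cell lymphoma array, with a difference of 6.43 ± 1.25 (adjusted p = 0.0536). Sirpa, a receptor that restrains phagocytosis, differed by 4.65 ± 1.10 (adjusted p = 0.0891), Trem2, a lipid-sensing receptor, by 4.13 ± 0.81 (adjusted p = 0.0559), and C5ar1, the receptor for complement C5a, by 3.32 ± 1.13 (adjusted p = 0.194). The signalling adaptor of Trem2, Tyrobp, was 1.66 in the macrophage array, against -0.34 and -0.64 in myeloma arrays 1 and 2 and -0.62 in the T-cell lymphoma array, and differed by 2.22 ± 0.41 (adjusted p = 0.0516). The macrophage array was above all lymphoid arrays in 22 of the 39 probes (56.4%), against 24.1% of all features. None of the 4 calls was kept without either mammary tumor array; Cd14 and Lilrb4a were kept without myeloma array 1, and Cd14 without myeloma array 2.

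Chemokines and lipid mediators added 5 calls, all higher, where 1.17% of all features were called higher. Of 30 measured cytokine and chemokine probes 3 were called, with a list median of 0.44. Ccl24, an eosinophil attractant, was 4.21 in the macrophage array, against -2.25 and -0.09 in myeloma arrays 1 and 2 and -1.99 in the T-cell lymphoma array. It had the highest macrophage value of the 15 largest differences, and the myeloma arrays lay far apart. The difference was 5.79 ± 0.83 (adjusted p = 0.0266). Ccl2, a monocyte attractant, was 1.29 in the macrophage array, against -1.87 and -3.40 in myeloma arrays 1 and 2 and -4.21 in the T-cell lymphoma array, and differed by 4.71 ± 0.64 (adjusted p = 0.0257). Ccl4 was 2.96 in the macrophage array, against -0.81 and -0.52 in myeloma arrays 1 and 2 and -1.27 in the T-cell lymphoma array. Among the uncalled members, Ccl9 differed by 2.94, Ccl5 by 2.61 and the cytokine Il6 by -1.96, the last with 2.48 and 2.85 in the myeloma arrays. Of 21 lipid probes 2 were called. Alox5ap, which presents arachidonic acid to 5-lipoxygenase, was 2.73 in the macrophage array, against -1.64 and -3.47 in myeloma arrays 1 and 2 and -1.0 in the T-cell lymphoma array, with a difference of 4.50 ± 0.71 (adjusted p = 0.0340). Plin2, a coat protein of lipid droplets, differed by 3.13 ± 0.48 (adjusted p = 0.0322). None of the 5 was called without either mammary tumor array; Ccl24, Ccl2 and Alox5ap were called without myeloma array 1 or 2.

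Interferon-response genes had the highest median of the lists with over 2 probes, 1.39, and 19 of their 25 probes (76%) had the macrophage array above all lymphoid arrays, against 24.1% of all features. The 4 called were all higher, where 1.17% of all features were called higher. Isg15, a ubiquitin-like modifier, was 1.93 in the macrophage array, against -2.34 and -2.51 in myeloma arrays 1 and 2 and -2.14 in the T-cell lymphoma array. Ifit3 was 2.94 in the macrophage array, against -0.61 and -0.74 in myeloma arrays 1 and 2 and -1.48 in the T-cell lymphoma array, with a difference of 4.01 ± 0.40 (adjusted p = 0.0186). Ifi203, a DNA-sensor family member, was 1.81 in the macrophage array, against -1.26 and -1.10 in myeloma arrays 1 and 2 and -3.09 in the T-cell lymphoma array. Oas1a, an oligoadenylate synthetase, was 2.53 in the macrophage array, against -0.71 and -1.18 in myeloma arrays 1 and 2 and -0.87 in the T-cell lymphoma array. In each, every lymphoid array was below 0 and the macrophage array above it. The factor Irf7 differed by 2.18, Ifit2 by 2.91 and the immunoproteasome subunit Psmb8 by 2.70, none of them called. Rtp4, an interferon-induced gene outside the list, was 3.53 in the macrophage array, against -0.84 and -1.27 in myeloma arrays 1 and 2 and -2.67 in the T-cell lymphoma array, and differed by 5.39 ± 0.54 (adjusted p = 0.0186). Ifit3 and Ifi203 were called without either mammary tumor array and without myeloma array 1, and Ifit3 without myeloma array 2; Rtp4 was called in each of these. The list median ranged from 1.14 to 1.56 over the processing settings tried.

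Galectins and annexins, lectins and calcium-dependent membrane-binding proteins, gave 4 higher calls among 19 measured probes of the S100, galectin and annexin list. The list's median difference was 1.03, and 1.17% of all features were called higher. Lgals3 (galectin-3) was 1.35 in the macrophage array, against -3.88 and -4.16 in myeloma arrays 1 and 2 and -4.51 in the T-cell lymphoma array, with a 49-fold difference of 5.61 ± 0.49 (adjusted p = 0.0169). Anxa3 was 0.53 in the macrophage array, against -3.31 and -4.59 in myeloma arrays 1 and 2 and -5.08 in the T-cell lymphoma array. Unlike for Gpnmb, non-blood lines reached the macrophage value of both: they ran over -4.14 to 1.43 for Lgals3 and -1.05 to 2.19 for Anxa3. Anxa4 differed by 3.82 ± 0.59 (adjusted p = 0.0326). Lgals1 (galectin-1) was 0.06 in the macrophage array, against -5.19 and -6.38 in myeloma arrays 1 and 2 and -0.55 in the T-cell lymphoma array, so that the myeloma line was low and the T-cell lymphoma line was close to the macrophage line. Among cytoskeletal genes 2 of 35 probes were called higher and 1 lower, against 1.17% and 0.903% of all features. Marcks, a protein kinase C substrate that links actin to the membrane, was 0.42 in the macrophage array, against -3.89 and -5.56 in myeloma arrays 1 and 2 and -3.46 in the T-cell lymphoma array, with a difference of 4.51 ± 0.67 (adjusted p = 0.0293). Tpm1 (a tropomyosin) differed by 3.11 ± 0.53 (adjusted p = 0.0410). Flna (filamin A) had 1 of 2 probes called lower, at -3.56 ± 0.56 (adjusted p = 0.0339); the other probe differed by -0.08, so the 2 probes disagree. Lgals3 and Anxa3 were called without either mammary tumor array and without either myeloma array. Lgals1 was called without myeloma array 1 but not without the others named here, and Anxa4 was not called without any of them. Marcks was called without either myeloma array and Tpm1 without myeloma array 1, while both lost the call without a mammary tumor array, and Flna was not called without any of the 4.

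Leukocyte genes that both lineages share gave a single call among 28 probes, where 1.17% of all features were called higher. Plek (pleckstrin), a protein kinase C substrate of platelets and leukocytes, was 2.51 in the macrophage array, against -2.95 and -3.18 in myeloma arrays 1 and 2 and -3.54 in the T-cell lymphoma array. No lymphoid array overlapped the macrophage value, and the difference was 5.81 ± 0.53 (adjusted p = 0.0169), called without each mammary tumor and each myeloma array. Of the 28 pan-leukocyte probes the median difference was -0.31. The lymphotoxin gene Ltb differed by -3.47 and the leukocyte actin regulator Arhgdib by 2.78, neither called. The oxidase, iron and effector list (0 of 18 called, median 0.83), the myeloid signalling list (0 of 17, median 0.78) and the myeloid transcription factors (0 of 19, median 0.85) had no call by limma, with 5, 3 and 6 probes at an unadjusted p under 0.05. Spi1, which encodes PU.1, differed by 1.56 ± 0.39 (adjusted p = 0.0996), Irf8 by 1.49 and Cebpa by 1.24. Cfp (properdin), a complement regulator, was 3.36 in the macrophage array, against 1.27 and -0.92 in myeloma arrays 1 and 2 and 0.10 in the T-cell lymphoma array, and differed by 3.22 ± 0.96 (adjusted p = 0.147). The macrophage array was above all lymphoid arrays in 11 of 18, 9 of 17 and 13 of 19 probes of these 3 lists, against 24.1% of all features.

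**Figure D3:**
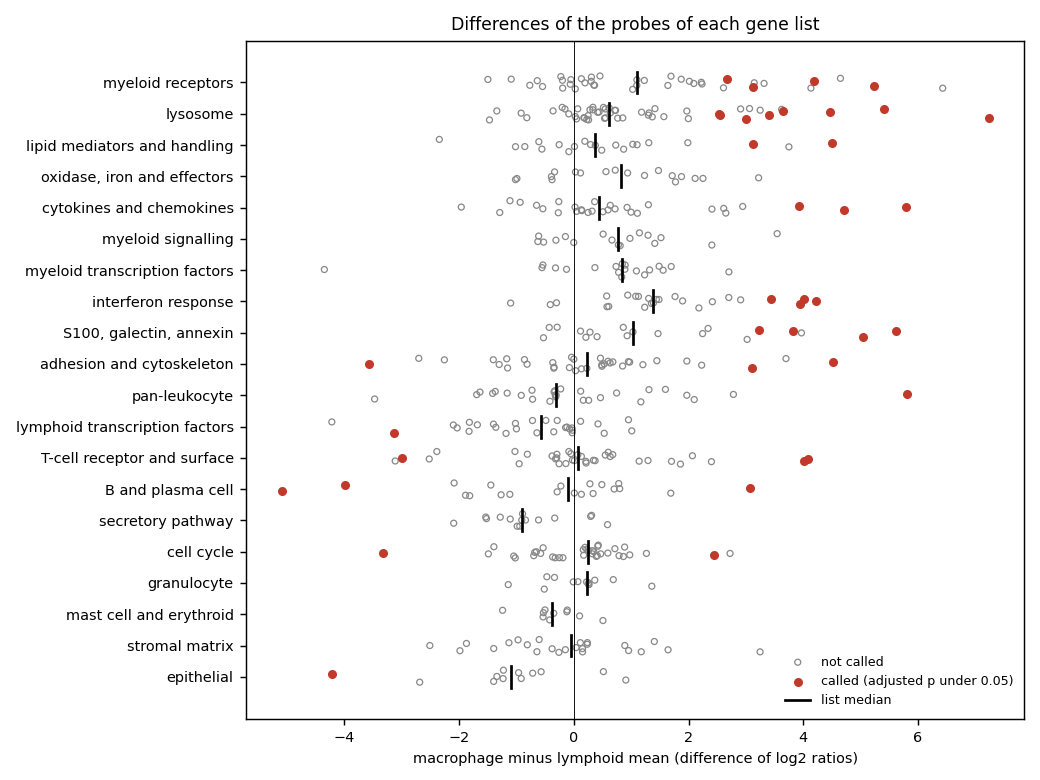
Macrophage minus lymphoid mean on the log2 scale (horizontal axis) for each measured probe of 20 of the 21 gene lists (vertical axis), with called probes filled, the others open, and a bar at each list's median. Filled points lie to the right for receptors, lysosome, lipid, chemokine, interferon, galectin and annexin probes, on both sides for T-cell, B-cell, cytoskeletal and cell-cycle probes, and the highest median is that of the interferon list.

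Lists of lymphoid genes held 4 lower and 3 higher calls. Over all features 0.903% were called lower and 1.17% higher. Of 20 B and plasma cell probes 2 were called lower and 1 higher, with a median of -0.11. Tnfrsf13b, which encodes the TACI receptor for plasma cell survival factors, was -2.91 in the macrophage array, against 2.89 and 2.55 in myeloma arrays 1 and 2 and -0.56 in the T-cell lymphoma array. St6gal1, a sialyltransferase that caps glycans of B-cell glycoproteins, had 3 probes; the called one was -3.54 in the macrophage array, against 2.48 and 3.05 in myeloma arrays 1 and 2 and 0.34 in the T-cell lymphoma array, and the other 2 differed by -1.88 and -1.81 without a call. Cd72, an inhibitory co-receptor best known on B cells, was called higher: it was 3.09 in the macrophage array, against 0.30 and -0.24 in myeloma arrays 1 and 2 and 0.01 in the T-cell lymphoma array. Of 35 T-cell probes 1 was called lower and 2 higher. Cd3g, a chain of the T-cell receptor complex, was -2.35 in the macrophage array, against -1.39 and -0.67 in myeloma arrays 1 and 2 and 2.31 in the T-cell lymphoma array. The 2 higher calls were of genes named for T cells. Cd28, a T-cell co-stimulatory receptor, was 2.97 in the macrophage array, against -0.71 and -1.05 in myeloma arrays 1 and 2 and -1.20 in the T-cell lymphoma array, with a difference of 4.01 ± 0.46 (adjusted p = 0.0194). Il2ra, the alpha chain of the interleukin-2 receptor, had 1 of 4 listed probes called, at 4.08 ± 0.71 (adjusted p = 0.0442), and its other 3 probes lay between -0.32 and 0.60. Of 28 lymphoid transcription factor probes 1 was called, lower, with a list median of -0.56. That factor, Lef1, was -3.48 in the macrophage array, against -3.03 and -2.77 in myeloma arrays 1 and 2 and 2.18 in the T-cell lymphoma array. Irf4 was -3.77 in the macrophage array, against 3.01 and 2.97 in myeloma arrays 1 and 2 and -2.09 in the T-cell lymphoma array, with a difference of -4.21 ± 0.93 (adjusted p = 0.0745) and no call. Tnfrsf13b was called without either mammary tumor array but not without either myeloma array, and St6gal1 and Cd72 were not called without any of the 4. Cd28 was called without each mammary tumor array and without myeloma array 1, Lef1 without myeloma array 1, and Cd3g and Il2ra were not called without any of the 4.

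Among the largest lower differences, most genes were in none of the lineage lists. Wnt10a, a secreted Wnt ligand, was -4.96 in the macrophage array, against 1.39 and 1.38 in myeloma arrays 1 and 2 and 0.41 in the T-cell lymphoma array. Its 57.9-fold difference of -5.85 ± 0.40 (adjusted p = 0.00865) was called without each mammary tumor and each myeloma array. Kcnq1, a voltage-gated potassium channel, had 3 probes; the called one was -3.69 in the macrophage array, against 2.31 and 2.92 in myeloma arrays 1 and 2 and 0.86 in the T-cell lymphoma array, while the others differed by 0.66 and -0.29. Nedd4, a ubiquitin ligase, was -5.84 in the macrophage array, against -1.57 and -0.90 in myeloma arrays 1 and 2 and -2.04 in the T-cell lymphoma array. Spint2, a serine protease inhibitor of epithelia, was -3.19 in the macrophage array, against 1.91 and 2.20 in myeloma arrays 1 and 2 and -0.03 in the T-cell lymphoma array. The macrophage array was the lowest of the 4 arrays for each. Spint2 was the 1 called of 12 epithelial probes, whose median was -1.09, where 0.903% of all features were called lower. Of 4 epithelial markers, 1 lay above 0 in the macrophage array, against 3 and 2 in the myeloma arrays and 1 in the T-cell lymphoma array. The part of these markers in the result was not tested. Dio1 (a thyroid hormone deiodinase) differed by -4.50, Aloxe3 (an epidermal lipoxygenase) by -4.14, Tiam1 (a Rac exchange factor) by -4.17 and Apln (apelin, with myeloma array 2 empty) by -3.96. For Ablim1 (an actin-binding protein) 1 of 2 probes was called, at -4.27, and the other differed by -1.64. Zfp975 differed by -5.02. The odorant receptors Olfr1355, Olfr67 and Olfr77 differed by -5.13, -4.48 and -4.08, the last 2 with myeloma array 2 empty. They were the 3 called of 62 odorant receptor probes, where 0.903% of all features were called lower. The median of the 62 was -0.88. The macrophage array had more values below -3 than the lymphoid arrays, 186 against 94 and 148 on the myeloma arrays and 172 on the T-cell lymphoma array; its part in these calls was not tested. Without either mammary tumor array, and also without myeloma array 2, 5 of the 12 list-free genes here (Wnt10a, Kcnq1, Nedd4, Dio1 and Aloxe3) were called; without myeloma array 1 these 5 were called too, the 3 with an empty second myeloma array having no value. Spint2 was not called without any of these arrays.

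On the higher side, genes outside the lists included Hsd3b7, an enzyme of bile acid synthesis, at 0.91 in the macrophage array, against -3.85 and -5.15 in myeloma arrays 1 and 2 and -2.64 in the T-cell lymphoma array, and Slc37a2, a sugar-phosphate exchanger, at 3.13 in the macrophage array, against -0.92 and -2.26 in myeloma arrays 1 and 2 and -1.07 in the T-cell lymphoma array. They differed by 4.48 ± 0.62 (adjusted p = 0.0266) and 4.46 ± 0.61 (adjusted p = 0.0260). Krtap14, a keratin-associated protein gene, was 2.82 in the macrophage array, against -1.67 in myeloma array 1, array 2 being empty for this probe, and -3.38 in the T-cell lymphoma array, and its difference of 5.35 ± 0.87 (adjusted p = 0.0496) was close to the threshold. Krtap14 was called without either mammary tumor array but not without myeloma array 2, and had no value without myeloma array 1. Hsd3b7 was called without myeloma array 1 only and Slc37a2 without either myeloma array. Of 36 cell-cycle probes, Cdkn2c (an inhibitor of cyclin-dependent kinases) was called higher at 2.44 and Cdkn1b (another one, p27) lower at -3.32. Over all features 1.17% were called higher and 0.903% lower. Neither cell-cycle gene was called without any of these 4 arrays. The secretory pathway list (15 probes, median -0.91), the granulocyte list (13, median 0.22), the mast cell and erythroid list (10, median -0.38) and the stromal list (24, median -0.05) had no call by limma, with 5, 1, 0 and 3 probes at an unadjusted p under 0.05. In the secretory list 9 of 15 probes had the macrophage array below all lymphoid arrays and none above, against 28.4% and 24.1% of all features. The list's median difference was -1.535 against myeloma and -0.161 against T-cell lymphoma. Its median log2 ratio was -0.401 in the macrophage line and -0.434 in the T-cell lymphoma line, so that the myeloma line, at 0.6355, was the high one. The 2 measured antigen-presentation probes, B2m and Cd74, were not called by limma either, and both had an unadjusted p under 0.05.

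Placed against the 8 non-blood lines, the called differences came from either side. Of the 87 higher features, the macrophage line exceeded all 8 lines in 62 (71.3%), against 18.7% of all features, and both lymphoid lines were below all 8 in 28 (32.2%), against 6.20% of all features. Gpnmb, Plek, Ccl24 and Cd68 belonged to the first kind. Their non-blood lines ran over -5.42 to -0.99, -4.70 to -2.24, -3.52 to -0.15 and -5.36 to -2.08. Cd63, Marcks and Anxa3 were of the second kind: the macrophage value lay inside the range of the non-blood lines, and the lymphoid arrays lay below it. Of the 67 lower features, the macrophage line was below all 8 in 51 (76.1%), against 15.2% of all features, and both lymphoid lines were above all 8 in 14 (20.9%), against 8.16%. These shares describe features that the same arrays selected, and no test was made of them. St6gal1 and Tnfrsf13b were higher in both lymphoid lines than the non-blood range of -3.96 to -1.24 and -3.41 to -0.65, whereas Nedd4 was below the range of -0.68 to 1.07 in the macrophage line.

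**Figure D4:**
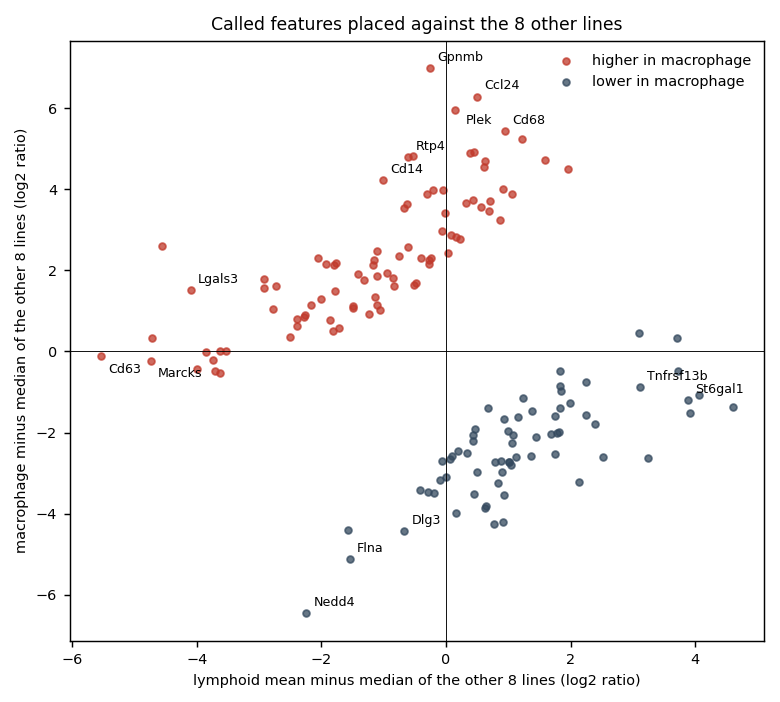
Lymphoid mean (horizontal axis) and macrophage value (vertical axis) of the 154 called features, each minus the median of the 8 non-blood lines on the log2 scale. Gpnmb, Plek, Ccl24 and Cd68 stand high with lymphoid values near that median, Cd63, Marcks and Lgals3 lie at the left with low lymphoid values, and Nedd4 lies lowest.

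Set against each lymphoid line by itself, the macrophage line had 182 called features against myeloma (2.45%), of which 80 (1.08%) were higher and 102 (1.37%) lower, and 150 against T-cell lymphoma (2.02%), of which 78 (1.05%) were higher and 72 (0.97%) lower. Both comparisons share the macrophage array. After quantile normalization the calls were 35 higher and 25 lower against myeloma, and 7 higher and 4 lower against T-cell lymphoma. Within the run of images that the macrophage and myeloma arrays share, 33 features were called against myeloma, 11 higher and 22 lower. The difference itself is the same there, and the residual spread came from the myeloma pair alone, so a run effect was not tested. Without myeloma array 1 the myeloma comparison had 76 calls and without array 2 none (900 features had an unadjusted p under 0.05 by limma); it had 39 without either mammary tumor array and 276 without either fibroblast array. The T-cell lymphoma comparison had 15, 22, 22 and 311 calls without a mammary tumor array, myeloma array 1, myeloma array 2 and a fibroblast array. Some genes were called against 1 lymphoid line and not the other, which by itself does not show that the lymphoid lines differ. Called higher against myeloma and not against T-cell lymphoma were Lgals1 at 5.84, S100a6 (a calcium-binding protein) at 5.68, Hsd3b7 at 5.41, Alox5ap at 5.28 and Marcks at 5.14. The S100a6 values were -1.54 in the macrophage array, against -6.79 and -7.66 in myeloma arrays 1 and 2 and -0.35 in the T-cell lymphoma array, so that the myeloma line was the low one. Called lower against myeloma alone were Olfr1355 at -6.98, Irf4 at -6.75, St6gal1 at -6.30, Clec2i (a lectin-like gene) at -5.74 and Tnfrsf13b at -5.63. Called higher against T-cell lymphoma alone were Krtap14 at 6.20, Tmem176b (a membrane protein) at 6.19, Lgmn at 5.53, Ctsl at 5.29 and Cd74 at 5.05. Cd74, the invariant chain of class II antigen presentation, was 1.57 in the macrophage array, against 1.75 and 1.89 in myeloma arrays 1 and 2 and -3.48 in the T-cell lymphoma array, level between the macrophage and myeloma lines and low in the T-cell lymphoma. Called lower against T-cell lymphoma alone were Esm1 (an endothelial proteoglycan) at -7.17, Emb (embigin, a cell adhesion protein) at -6.04, Tiam1 at -5.79, Lef1 at -5.67 and Kcnk4 (a potassium channel) at -5.60. The Emb values were -2.88 in the macrophage array, against -2.65 and -3.37 in myeloma arrays 1 and 2 and 3.16 in the T-cell lymphoma array, and only the T-cell lymphoma array was above 0. The difference between the lymphoid lines themselves was called for 107 features (1.44%). The named genes among them are given in the closing section; for the others named here, such as Irf4, with -5.08 ± 0.97 (adjusted p = 0.0695) for T-cell lymphoma minus myeloma, a difference between the 2 comparisons was not shown.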

How the data were processed

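The deposited value table held the authors' own log2 ratio of each spot for 7680 probes on 14 arrays of 11 lines, with 423 of 107520 cells (0.393%) empty. Neither background correction nor normalization, log base or direction is stated in the sources used here. A base of 2 of line over pool was judged from the values: the mean unlogged ratio over the lines had a median of 1.00, against 1.20 with the sign turned, 1.07 for natural logs and 1.87 for log10. Natural logs were parted from base 2 only weakly. The 80 Gapdh spots were averaged, leaving 7601 features, and the 7423 with a value in every line were tested. The platform annotation gave 1 symbol for 6835 probes, several for 4 and none for 841; 6809 were matched to RefSeq.

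All 14 arrays entered 1 limma fit (limma 3.58.1, R 4.3.3; lmFit and eBayes, two-sided) with a coefficient per line, 3 residual degrees of freedom, a prior of 3.75 and a median residual SD of 0.430. Contrasts were macrophage minus the mean of both lymphoid lines, minus each line, and T-cell lymphoma minus myeloma. Errors after ± are standard errors of the fit. The call threshold was a Benjamini-Hochberg adjusted p under 0.05 over all features. The script was checked on simulated data. The number of arrays limits the precision.

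Named were the 4 markers, the 15 largest called differences each way with 1 symbol and the macrophage array outside all lymphoid arrays, called members of 21 gene lists written from textbook knowledge, and the 5 largest each way called against 1 lymphoid line alone. Gene lists and their members were chosen with earlier results of these data known, so their counts, shares and medians are descriptions. Of 657 list entries, 481 genes (497 probes) were tested. Different probes of a gene were kept apart. Alternatives covered scaling, missing values, image runs, replicate number, probe-number trend, variance prior and left-out arrays.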

Additional observations from a re-analysis of the deposited data

Results flagged for a closer look

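The macrophage difference was unequal between the 2 lymphoid lines for 11 of the 65 named genes, by the test of T-cell lymphoma minus myeloma itself (limma, adjusted p under 0.05; over all features 40, or 0.539%, were higher and 67, or 0.903%, lower in the T-cell lymphoma). Of the 11, 9 were named because they were called against 1 lymphoid line and not the other, as were 20 of the 65, so the count of 11 is a description and not comparable with the shares over all features; Cd68 and Cd3g were named on other grounds. This difference was -5.30 for Cd74, -4.27 for Lgmn, -3.82 for Cd68, -3.65 for Tmem176b and -3.28 for Ctsl, all lower in the T-cell lymphoma. It was 3.34 for Cd3g, 4.12 for Kcnk4, 5.08 for Lef1, 5.24 for Lgals1, 6.17 for Emb and 6.87 for S100a6, all higher there. The 107 calls over all features became 19 without either mammary tumor array, 180 without either fibroblast array, 15 without myeloma array 1 and 0 without array 2 (891 at an unadjusted p under 0.05 by limma). For Cd68, a lysosomal protein, the macrophage line was 2.56 above myeloma and 6.38 above the T-cell lymphoma, and for Lgmn and Ctsl the T-cell lymphoma was likewise the lower line. For Lgals1 and S100a6 the myeloma line was the lower one. The T-cell lymphoma image lies in another run than the myeloma images, and only the fibroblast line has an array in each of the 2 runs, so that the run effect between them rests on that line. With the run as a fixed term none of the 7423 features was called (655 at an unadjusted p under 0.05 by limma). The residual spread then came from the myeloma pair alone.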

How the results depend on the processing

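For macrophage minus the lymphoid mean, against 154 calls, there were 0 with the image run as a fixed block, 365 with it as a random block, 6 with the lymphoid lines as 2 samples, 13 from only the 4 blood-cell arrays, 8 after quantile normalization, 584 with the replicate block, 311 with the trend along the probe number removed, and 29 to 288 leaving out 1 array. Centring gave 166, probes on all arrays 150 and the robust prior 140. For macrophage minus myeloma, against 182, they were 33 with the run fixed, within the run and from the 4 arrays, 532 with the run random, 60 by quantile, 488 with the replicate block and 0 to 276 leaving out 1 array. For macrophage minus T-cell lymphoma, against 150, they were 0 with the run fixed and from the 4 arrays (811 and 1253 at an unadjusted p under 0.05 by limma), 11 by quantile, 562 with the replicate block, 267 without the trend and 15 to 311 leaving out 1 array. For T-cell lymphoma minus myeloma, run on alternatives chosen after seeing the data, against 107, they were 0 with the run fixed, 14 from the 4 arrays, 19 by quantile, 219 with the replicate block and 0 to 180 leaving out 1 array. The same 2 replicate numbers recur in the fibroblast, mammary tumor and myeloma lines; same-numbered arrays deviated together (r of 0.539, 0.333 and 0.381 across probes), but the labels name no shared batch, and the macrophage and T-cell lymphoma arrays carry no number in the labels. The block kept all 154 calls and also called Adgre1 (adjusted p = 0.0464) and Lyz1 (adjusted p = 0.0111). Of 1209 values of named genes under these alternatives 0 changed sign, 774 stayed on their side of the threshold, 428 lost the call and 7 gained it. Several alternatives change only the error and leave the difference as it was, and most named genes were chosen for large or called differences. A change of sign was therefore unlikely from the start, and the 0 is a description. Gpnmb and Wnt10a kept the call in 15 of 16 settings, losing it with the run as a fixed block (adjusted p = 0.0586 each). The list medians of the T-cell (-0.11 to 0.29) and stromal lists (-0.48 to 0.20) crossed 0. Leaving out an array lowers the residual degrees of freedom. So do the run as a fixed block, the 4 blood-cell arrays alone and the lymphoid lines as 2 samples. With the run fixed, within the run or from the 4 arrays, the residual spread came from the myeloma pair alone. For macrophage minus myeloma these settings also leave the difference unchanged, so they could not show a run effect. Beyond that, the cause of the spread in counts was not tested. Signal over background of the spots is not given, so dim spots could not be set apart.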

Other observations

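Some called genes in none of the lists are given here as values; they were chosen after their values were seen and bear on no list. Ptpro, a receptor tyrosine phosphatase, was 3.07 in the macrophage array, against -0.52 and -1.68 in myeloma arrays 1 and 2 and -1.13 in the T-cell lymphoma array. Anpep (aminopeptidase N, also called CD13), a myeloid surface enzyme, was 2.17 in the macrophage array, against -1.87, -3.01 and -1.75. Mpeg1, a pore-forming protein of macrophages, was 1.77, against -0.25, -0.47 and -0.42. The SNARE proteins Vamp8 and Stx7, which act in endosome fusion, differed by 3.28 and 2.32, the proton pump subunit Atp6v1c1 by 2.66 and the cathepsin inhibitor Cstb by 3.32. The kinases Prkcb and Prkch differed by 3.59 and 3.28. Each of these was called by limma, at adjusted p between 0.0222 and 0.0480.

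On the lower side, the antiproliferative genes Btg2 and Btg3 differed by -3.72 and -3.75, the signal transducer Smad3 by -3.81 and the adhesion molecule Pecam1 by -3.83. Btg2 was -3.16 in the macrophage array, against 2.02 and 2.69 in the myeloma arrays and -1.25 in the T-cell lymphoma array. A feature with no gene name in the annotation used differed by 7.16, second to Gpnmb, and another differed by -5.97, beyond Wnt10a; both remain unnamed here.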
